A study of Mus musculus with 2 samples.

Results

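The endo cluster of this brainstem dataset held 344 nuclei, and 135 of them (39.2%, 95% Clopper-Pearson interval 34.1 to 44.6%) carried a reference label other than endothelial cells. These 135 discordantly labelled nuclei are described here. They were chosen from the deposited annotation alone, as the nuclei whose cluster name was endo and whose broad SingleR label, assigned by likeness to a reference of sorted mouse cells, was not endothelial cells. They made up 0.738% of all 18281 nuclei. The other 209 endo nuclei, labelled endothelial cells, served as the comparison.

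Single-nucleus RNA-seq was performed on the brainstem of 1 wild-type (WT) and 1 heterozygous Scn1a A1783V/WT knock-in (HET) mouse, both C57Bl6 females at P41 and neither given a drug. Scn1a encodes a sodium channel subunit, and this missense allele models Dravet syndrome. HETs were bred by crossing males that carry the floxed Scn1a allele with Sox2-Cre females, so Cre acted throughout the embryo, and the WT was a littermate without the allele. With 1 library per genotype, differences between genotypes have no replicate check and no test was made. All intervals given are exact 95% intervals that cover counting error only.

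Brain capillaries are built from endothelial cells, which are sealed by tight junctions and carry the transporters of the blood-brain barrier, and from pericytes, which lie in the same basement membrane and are held there by endothelial PDGF-B acting on the receptor Pdgfrb. Arterioles carry contractile smooth muscle cells in place of pericytes. Pericytes and smooth muscle together are called mural cells.

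The WT library held 9259 nuclei and 70301390 UMIs, counts of single RNA molecules, and the HET library held 9022 nuclei and 66176778 UMIs. The discordant nuclei had 1456 to 12195 UMIs (median 2060) against a median of 2220 in the endothelial-labelled nuclei and 8066 in the neuronal clusters, and a median of 1216 genes. A total of 23 cell barcodes occurred in both libraries, and 0 of these were in the endo cluster. Scn1a gave 33 UMIs in the 74 discordant HET nuclei and 15 in the 61 WT nuclei, or 174 CPM (120 to 245) against 89.9 CPM (50.3 to 148), where CPM is UMIs per 1000000 UMIs of the nuclei summed. In neuronal clusters Scn1a stood at 493 CPM in HET and 431 CPM in WT. A missense allele is still transcribed, so this level does not check the genotype.

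Of the 135 nuclei, 87 were labelled neurons, 26 astrocytes, 21 oligodendrocytes and 1 microglia. The WT library gave 61 of its 222 endo nuclei (27.5%, 21.7 to 33.9%) and the HET library 74 of its 122 (60.7%, 51.4 to 69.4%). As a share of the whole library, the discordant nuclei were 0.659% (0.504 to 0.845%) in WT and 0.820% (0.645 to 1.03%) in HET, which overlap within counting error. The endothelial-labelled nuclei took 1.74% (1.48 to 2.03%) of WT and 0.532% (0.393 to 0.705%) of HET nuclei. The finer SingleR label named 60 of the 135 neurons, 16 activated neurons, 21 astrocytes, 18 oligodendrocytes, 8 quiescent neural stem cells, 2 neural progenitors and 10 endothelial cells.

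The 344 endo nuclei were clustered again on their counts without the label, which gave 8 subclusters. A subcluster was called pericyte-like or endothelial-like where at least 3 of its 10 leading genes, against nuclei of all other clusters, belonged to that marker list and 0 to the other vascular list. Of the discordant nuclei, 75 (55.6%, 46.8 to 64.1%) fell in a pericyte-like subcluster, 33 (24.4%) in 3 endothelial-like subclusters, 21 in a subcluster led by endothelial and oligodendrocyte genes together, 4 in one led by endothelial, pericyte and astrocyte genes, and 2 in another mixed subcluster. The neuron and astrocyte labels crossed this division. Of the 87 neuron-labelled nuclei, 52 were pericyte-like and 31 endothelial-like, while 22 of the 26 astrocyte-labelled nuclei were pericyte-like and 20 of the 21 oligodendrocyte-labelled nuclei were oligodendrocyte-led. Subclusters and labels were made from the same counts, so the levels that follow describe these nuclei and are not tests of them.

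**Figure D1:**
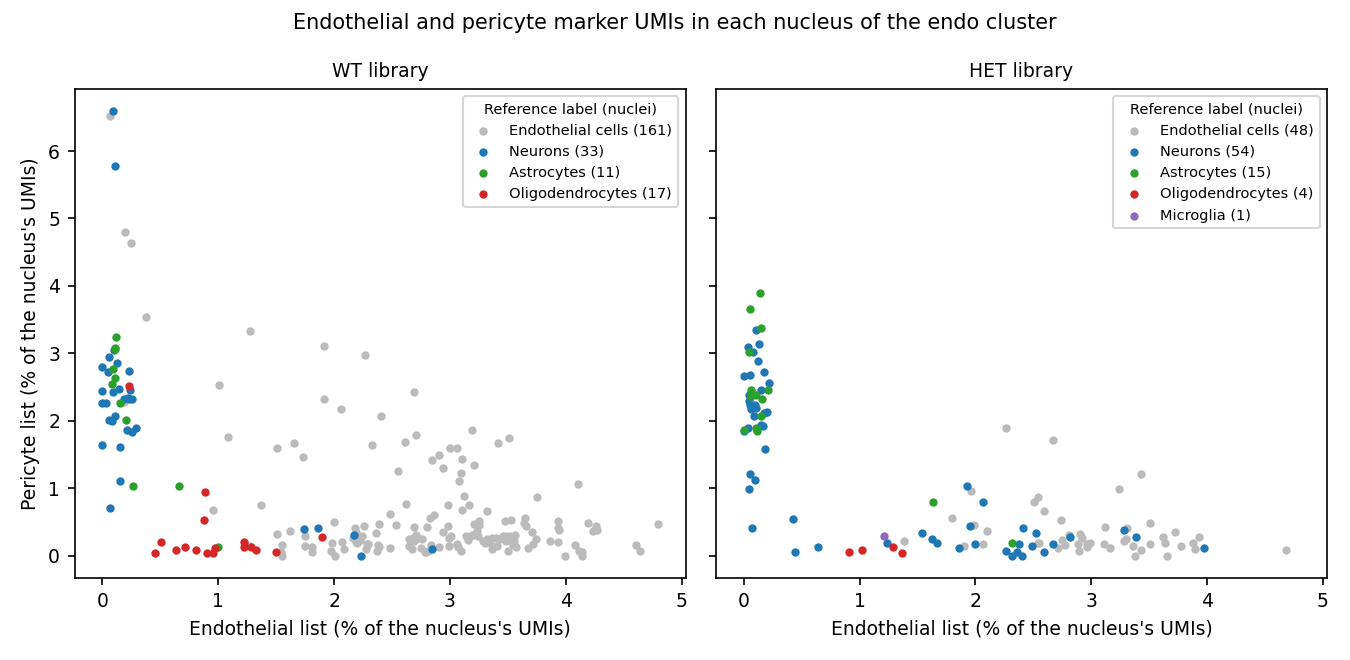
Share of each endo nucleus's UMIs (%) in the 30 genes of the endothelial list (horizontal) and the 20 genes of the pericyte list (vertical), in the WT and HET libraries, with 1 point per nucleus coloured by reference label. The 75 pericyte-like nuclei form the column at the left, with an endothelial share of at most 0.291%, and hold blue (neuron-labelled) and green (astrocyte-labelled) points in both libraries.

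The pericyte-like nuclei expressed the defining pericyte genes and almost none of the endothelial ones. Pdgfrb, the PDGF-B receptor, was found in 71 of the 75 nuclei at 1587 CPM (245 UMIs, 1394 to 1798), against 173 CPM in endothelial-labelled nuclei and 2.70 CPM in neuronal clusters. It was high in both libraries, with 138 UMIs in 35 WT nuclei (1840 CPM, 1546 to 2173) and 107 UMIs in 40 HET nuclei (1348 CPM, 1105 to 1629). Vtn, which encodes the matrix protein vitronectin, stood at 1645 CPM (1449 to 1860) in 65 nuclei, and its WT and HET levels were 1680 and 1613 CPM. Rgs5, a regulator of G protein signalling, stood at 842 CPM (703 to 1000) in 51 nuclei, and its WT and HET levels were 747 and 932 CPM. Neuronal clusters had 6.83 CPM of Vtn and 1.91 CPM of Rgs5, although their nuclei were deeper.

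Rgs5 and Vtn alone did not separate the pericyte-like nuclei from the rest of the endo cluster. Summed over both libraries, endothelial-labelled nuclei had more of both, 1427 CPM of Rgs5 in 110 of 209 nuclei and 2371 CPM of Vtn in 72 of 209. This held in WT, at 1583 CPM of Rgs5 and 2807 CPM of Vtn against 747 and 1680 CPM in pericyte-like nuclei. In HET the endothelial-labelled nuclei had less, 848 and 761 CPM against 932 and 1613 CPM, with the 2 Rgs5 levels close. The 2 discordant nuclei of the other mixed subcluster, both WT and neuron-labelled, had 183 Vtn UMIs between them (44732 CPM, 38486 to 51704), with 255 UMIs of the whole pericyte list and 4 of the endothelial list. They lay in a subcluster of 44 nuclei whose other 42 were labelled endothelial cells. Its 10 leading genes against other clusters held 4 pericyte and 2 endothelial markers. It gave 1644 Vtn UMIs (7502 CPM), against 400 (510 CPM) in all other endo nuclei, and Rgs5 stood there at 2478 CPM. Most Vtn UMIs of the endothelial-labelled nuclei were therefore in this mixed subcluster.

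The 2 subunits of the vascular ATP-sensitive potassium channel, Abcc9 and Kcnj8, were both present in the pericyte-like nuclei. Abcc9 stood at 1684 CPM (1486 to 1902) in 68 of 75 nuclei, and Kcnj8 at 350 CPM (263 to 456) in 29. Abcc9 had 190 CPM and Kcnj8 179 CPM in endothelial-labelled nuclei. Atp13a5, a transport ATPase used as a marker of brain pericytes, stood at 4042 CPM (3731 to 4372) in 73 nuclei against 247 CPM in endothelial-labelled nuclei. Pde8b, a phosphodiesterase of cAMP, was found in 75 of 75 at 3258 CPM (2979 to 3555) against 189 CPM. Ebf1, a transcription factor of mural and other cells, stood at 3795 CPM against 1379 CPM.

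The promoters of the pericyte markers Vtn and Rgs5 and of both channel subunits are shown, searched for the motif of RBPJ, the DNA-binding factor of Notch signalling. Of these 4 genes, only Abcc9 was at least 2-fold higher than in endothelial-labelled nuclei in both libraries. Each is RefSeq sequence of GRCm38.p6 from 250 to 51 bases before the gene's start, on the gene's strand. Capitals mark the letters TGGGAA or their reverse complement TTCCCA, the core of the RBPJ motif, searched on both strands.
Vtn: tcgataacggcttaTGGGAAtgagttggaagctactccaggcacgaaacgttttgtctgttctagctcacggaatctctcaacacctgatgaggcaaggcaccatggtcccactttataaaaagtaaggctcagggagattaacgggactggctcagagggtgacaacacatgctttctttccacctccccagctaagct
Rgs5: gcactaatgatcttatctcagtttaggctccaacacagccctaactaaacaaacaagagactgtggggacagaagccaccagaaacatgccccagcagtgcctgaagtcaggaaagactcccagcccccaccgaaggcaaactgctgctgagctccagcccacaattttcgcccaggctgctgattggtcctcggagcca
Abcc9: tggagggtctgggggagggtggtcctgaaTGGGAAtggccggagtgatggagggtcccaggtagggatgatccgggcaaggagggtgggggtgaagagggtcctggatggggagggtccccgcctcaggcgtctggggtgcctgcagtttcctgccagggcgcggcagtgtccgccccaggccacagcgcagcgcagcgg
Kcnj8: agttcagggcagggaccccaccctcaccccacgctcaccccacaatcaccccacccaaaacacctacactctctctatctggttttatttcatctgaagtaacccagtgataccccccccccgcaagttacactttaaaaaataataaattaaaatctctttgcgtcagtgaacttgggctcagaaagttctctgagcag
These windows are chr11:78498870-78499069 (plus strand), chr1:169655251-169655450 (plus), chr6:142702325-142702524 (minus) and chr6:142571665-142571864 (minus) in that order. The letters occurred 1 time each in the windows of Vtn and Abcc9 and 0 times in those of Rgs5 and Kcnj8, and 5886 of all 32851 promoter windows of that length (17.9%) hold them. A match of letters is not a binding site.

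Summed over its 20 genes, the pericyte list stood at 23472 CPM in the pericyte-like nuclei, 7294 CPM in endothelial-labelled nuclei and 1212 CPM in neuronal clusters. Nucleus by nucleus it took 0.703 to 3.90% of the UMIs (median 2.33%), and 0 of the 75 nuclei lacked it. The endothelial list stood at 1146 CPM, 3.83% (3.28 to 4.44%) of its level in endothelial-labelled nuclei. Cldn5, the main claudin of the blood-brain barrier, gave 4 UMIs in 3 of the 75 nuclei, all WT, and Pecam1, an endothelial adhesion molecule, gave 1 UMI. Flt1, a VEGF receptor, gave 20 UMIs in 16 nuclei (130 CPM, 79.1 to 200) against 3481 CPM in endothelial-labelled nuclei.

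Of the 18 genes of the smooth muscle list, 7 were measured. Of these, 4 were at least 2-fold higher in the pericyte-like than in the endothelial-labelled nuclei in both libraries (Slc38a11, Casq2, Ntrk3 and Myh11) and 0 lower. Over all 7418 genes, 7.2% were higher and 12.9% lower. Acta2, smooth muscle actin, was found in 0 of 75 nuclei, which allows a share of up to 4% of nuclei with a UMI. Tagln, an actin-binding protein of smooth muscle, gave 5 UMIs in 2 nuclei, and Myh11, smooth muscle myosin, 20 UMIs in 12 nuclei (130 CPM, 79.1 to 200, against 11 UMIs in 9 of the 209 endothelial-labelled nuclei). Casq2, a calcium-binding protein of muscle, stood at 207 CPM (142 to 293) against 44.8 CPM, and Mylk, myosin light chain kinase, at 181 CPM (121 to 262) against 95.8 CPM. The list as a whole stood at 1606 CPM against 623 CPM in endothelial-labelled nuclei. Slc38a11, a transporter that pericytes also express, gave 693 CPM of this (568 to 837) in 53 nuclei. One nucleus, picked out after its values were seen, held 29 UMIs of the smooth muscle list and 21 of the pericyte list. It was a WT nucleus of 2986 UMIs labelled neurons. Of the 19 genes of the fibroblast list, 3 were measured, with 0 higher and 0 lower by the same rule. Ptgds gave 323 UMIs (2092 CPM), Apod 72 (466 CPM) and Col3a1 11. The fibroblast genes Col1a1 and Lum were at 0 UMIs and Dcn at 4.

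**Figure D2:**
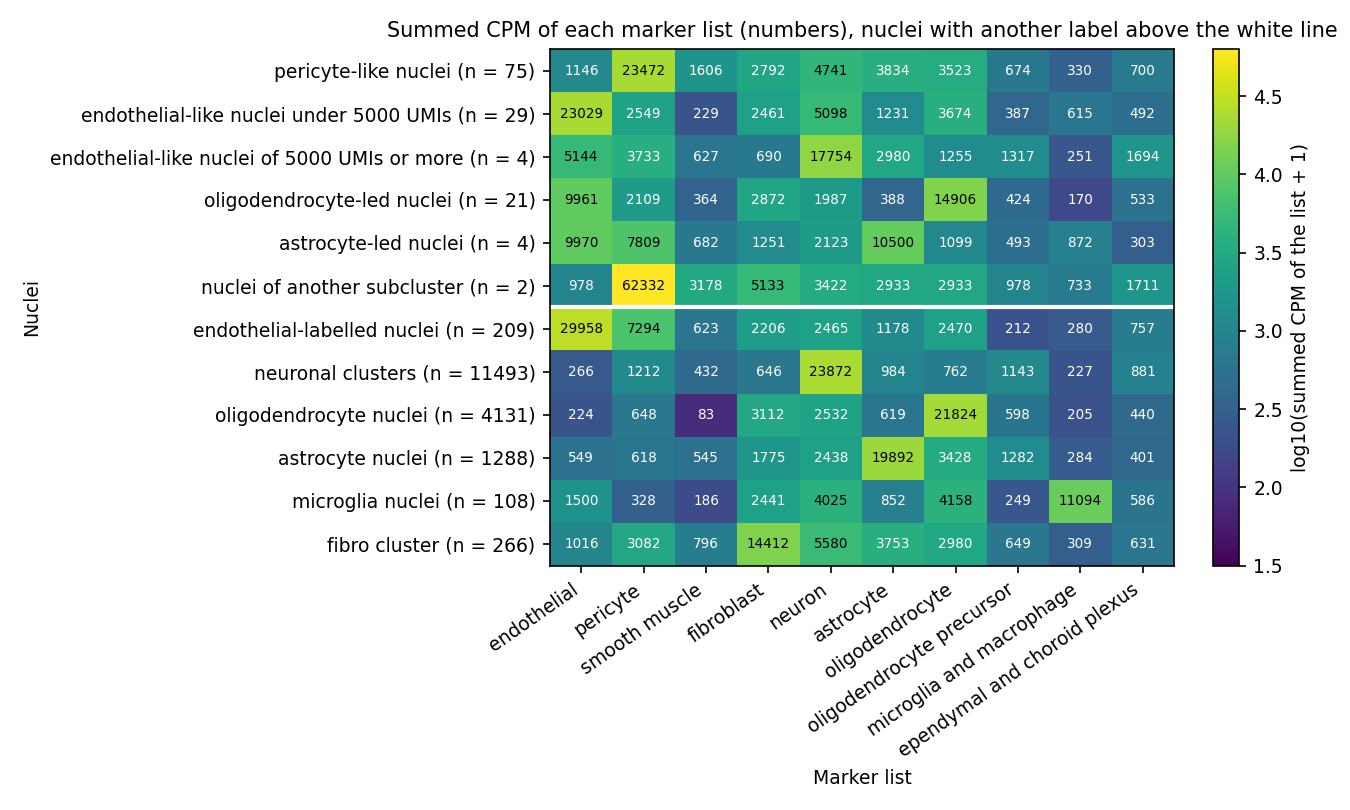
Summed CPM of 10 marker lists (columns, numbers in cells, colour on a log10 scale) in the discordant nuclei by subcluster (above the white line) and in comparison nuclei (below it). The pericyte list reads 23472 in the pericyte-like nuclei, and the oligodendrocyte-led nuclei hold 9961 of the endothelial and 14906 of the oligodendrocyte list.

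The genes of the labelled types stood well below their own types' levels in the pericyte-like nuclei. The neuron list stood at 4741 CPM, 19.9% (18.4 to 21.4%) of its level in neuronal clusters. Meg3, a long noncoding RNA found in many cell types, made up 54.9% of it. Without Meg3 the list stood at 2137 CPM (1913 to 2381), against 1306 CPM in endothelial-labelled nuclei, 1302 CPM in oligodendrocyte nuclei and 12488 CPM in neuronal clusters. The astrocyte list stood at 3834 CPM, 19.3% (17.7 to 20.9%) of its level in astrocyte nuclei. At least 3 UMIs of the neuron list were present in 74 of the 75 nuclei, but also in 194 of 209 endothelial-labelled and 3938 of 4131 oligodendrocyte nuclei. After thinning every nucleus to 1000 UMIs at random, the shares were 85.3, 55.4 and 47.7%. Ttr, a choroid plexus gene, was also found, at 570 CPM in 40 of the 75 nuclei against 590 CPM in endothelial-labelled nuclei. By library, the pericyte-like nuclei had more, 946 against 729 CPM in WT and 214 against 79.7 CPM in HET (17 and 11 UMIs).

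Across all genes, a gene was counted as higher or lower where its CPM differed by at least 2-fold in the same direction in both libraries and it had at least 20 UMIs. Against endothelial-labelled nuclei, 534 genes were higher in the pericyte-like nuclei (7.2% of 7418) and 958 lower (12.9%). Of the pericyte list, 13 of 19 measured genes were higher and 0 lower, with a median log2 difference of 2.09 beside -0.25 for all genes. Of the endothelial list, 29 of 30 were lower, with a median of -5.12. The median gene with at least 50 UMIs lay at -0.40. The subcluster was named from these lists, so these counts describe it.

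The genes with the highest and lowest ratios included many outside the marker lists. Plce1, a phospholipase C, was 25.7-fold higher than in endothelial-labelled nuclei (log2 4.68, 4.18 to 5.22), at 1509 against 58.7 CPM. Ror1, a Wnt receptor, was 24.7-fold higher, and the noncoding RNA Morrbid 24.1-fold. Gpc6, a glypican of the cell surface, was 20.1-fold higher at 2578 CPM. Il34, a ligand of the microglial receptor Csf1r, was 17.9-fold higher (log2 4.16, 3.33 to 5.08). Cobl, Galnt17 and Mboat2 were also among the 10 genes furthest above. Those furthest below included Ramp2, a co-receptor of adrenomedullin, with 1 UMI against 678 (log2 -7.34, -12.64 to -4.86), Id1 with 1 against 591, Cldn5 (log2 -6.68, -8.56 to -5.32), Slco1a4 (log2 -6.46) and Ly6c1 (log2 -6.25).

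Channels and regulators of contraction were the function list with most genes higher. Of its 26 genes, 19 were measured, 13 were higher and 0 lower. Prkg1, the cGMP-dependent kinase that relaxes mural cells, was found in 75 of 75 nuclei at 4055 CPM (3743 to 4385). It was not confined to them, and stood at 1994 CPM (1711 to 2310) in 27 of the 33 endothelial-like discordant nuclei. Cacna1c, the L-type calcium channel, stood at 1535 CPM (1346 to 1743), and Itpr1, a receptor that releases stored calcium, at 622 CPM. Ano1, a calcium-activated chloride channel, was 20.1-fold higher than in endothelial-labelled nuclei, at 745 CPM.

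The blood-brain barrier list went the other way, with 23 of 24 genes lower. In the signalling list around PDGF-B, 1 of 15 measured genes was higher, Pdgfrb, and 7 were lower, among them the ligand gene Pdgfb and the angiopoietin receptor Tek. Of 10 measured Notch genes, 3 were higher and 3 lower (Hey1, Jag2 and Hes1), with a median log2 of -0.44. The higher ones were Notch3, the mural Notch receptor, at 907 CPM (763 to 1070), and its targets Heyl (136 CPM) and Hey2 (130 CPM). Of the 16 measured basement membrane genes, 4 were higher, namely Col4a3, Lamc1, Lama2 and Nid1, and 3 were lower. Lama2, a laminin chain, stood at 1490 CPM (1303 to 1695). Of the list that marks arterial, capillary and venous endothelium, 0 of 15 were higher and 8 lower.

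The pericyte-like subcluster held 77 nuclei, and 75 of them (97.4%, 90.9 to 99.7%) carried a label other than endothelial cells. Its 37 WT nuclei were 0.40% of their library (0.282 to 0.550%) and its 40 HET nuclei 0.443% of theirs (0.317 to 0.603%), with intervals that overlap. In the 3 endothelial-like subclusters, by contrast, 5 of 77 WT nuclei (6.49%, 2.14 to 14.5%) and 28 of 61 HET nuclei (45.9%, 33.1 to 59.2%) carried another label. Of these 28, 24 had under 5000 UMIs, and the 4 deeper ones, described below, were rich in neuronal RNA. Those subclusters as a whole were 0.832% (0.657 to 1.04%) and 0.676% (0.518 to 0.868%) of all WT and HET nuclei. These shares leave out subcluster 3, which had 2 endothelial markers among its 10 leading genes and so got no name. It held 51 WT and 8 HET nuclei, all labelled endothelial cells.

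The 33 endothelial-like discordant nuclei had depths close to those of their endothelial-labelled neighbours. Their median was 1846 UMIs in HET against 1899 in the 33 endothelial-labelled nuclei of the same subclusters, and 1935 against 1929.5 in WT. When these subclusters were split by depth into 3 bins of near-equal size, discordant nuclei were 9 of 21, 8 of 20 and 11 of 20 HET nuclei from the shallowest to the deepest bin. In WT they were 2 of 26, 1 of 26 and 2 of 25. Subcluster 1, which held 16 of the 33, had 5 endothelial genes among its 10 leading genes against other clusters, but the genes that set it apart within the endo cluster included the neuronal genes Gabrb2, Myt1l and Unc5d. Epha6 and Nrg3os, also among these, gave 49 and 41 UMIs in subcluster 1. In discordant endothelial-like nuclei under 5000 UMIs they gave 4 and 2 in HET and 0 in WT. In all endothelial-labelled nuclei Epha6 gave 8 HET and 11 WT UMIs, and Nrg3os 11 and 5. Many of their UMIs in subcluster 1 therefore came from the deeper nuclei described next.

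A set of 4 HET nuclei of this group stood apart, with 5517, 5951, 8217 and 12195 UMIs. The neuron list took 1.41 to 1.98% of their UMIs, and its summed level was 74.4% (68.4 to 80.8%) of that in neuronal clusters, while the endothelial list was at 17.2% of its endothelial-labelled level. One of them held 6 endothelial UMIs (0.0730%). These 4 nuclei carry the name endothelial-like from their subclusters only. The other 29 nuclei, all under 5000 UMIs, had the endothelial list at 23029 CPM, 76.9% (72.6 to 81.3%) of the endothelial-labelled level, and at least 1.21% of every nucleus's UMIs. Mecom, an endothelial transcription factor, stood at 3850 CPM (3357 to 4395) and was found in 28 of the 29. Slco1a4, an organic anion transporter of the barrier, stood at 2918 CPM. Pdgfrb, Abcc9 and Atp13a5 were at 0 UMIs, which allows up to 52.7 CPM. The neuron list stood at 5098 CPM, 21.4% (19.0 to 24.0%) of the neuronal level, against 10.3% (9.83 to 10.8%) in all endothelial-labelled nuclei. Of the 29 nuclei, 24 were HET, while 161 of the 209 endothelial-labelled nuclei were WT. Within HET the values were 21.2% (18.6 to 24.0%) against 13.6% (12.3 to 14.9%). Within WT they were 20.1% (14.9 to 26.6%) against 9.58% (9.03 to 10.2%). The endothelial-labelled nuclei of these comparisons include 59 of subcluster 3 and 42 of subcluster 4, which were not among the endothelial-like subclusters. The level of the list in endothelial-labelled nuclei of the same subclusters is not given here.

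Against endothelial-labelled nuclei of the same subclusters, 292 genes were higher in the 33 nuclei (8.48% of 3442) and 25 lower (0.726%). Among the genes furthest above were Asic2, an acid-sensing channel (19.1-fold, log2 4.26, 3.45 to 5.17), Dcc, a netrin receptor (12.8-fold), Htr2c, a serotonin receptor (log2 3.59, 2.68 to 4.62), and Nrxn3, a neurexin (8.89-fold). These folds include the 4 deep nuclei, which held 566 of the 856 neuron-list UMIs of the 33 nuclei. Of the neuron list, 4 of 14 measured genes were higher (Syt1, Kcnc2, Grin2a and Celf4). Without the 4 deep nuclei, 164 genes were higher (5.39% of 3040) and 15 lower (0.493%), and 0 of the 11 measured neuron-list genes were higher. Cldn5 was lower with and without them, by 2.53-fold (log2 -1.34, -1.96 to -0.77) and by 2.14-fold (log2 -1.10, -1.81 to -0.45), and so was Ramp2 (4.50-fold and 4.32-fold). The WT side of these comparisons rests on 5 nuclei.

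The 21 oligodendrocyte-led nuclei, 16 WT and 5 HET, held endothelial and oligodendrocyte RNA in the same droplet. The endothelial list stood at 9961 CPM, 33.3% (31.0 to 35.7%) of its endothelial-labelled level, and the oligodendrocyte list at 14906 CPM, 68.3% (64.5 to 72.2%) of its level in oligodendrocyte nuclei. The endothelial share ran from 0.442 to 1.89% and the oligodendrocyte share from 0.951 to 1.99% of a nucleus's UMIs, so no nucleus lacked either. Flt1 stood at 1357 CPM (1118 to 1633) in 20 of 21 nuclei, and Slco1a4 at 1260 CPM (1030 to 1527) in 15. The myelin gene Mbp stood at 2412 CPM (2088 to 2771) in 20 nuclei, and St18, a transcription factor of oligodendrocytes, at 2278 CPM in 21 of 21. Pdgfrb gave 3 UMIs in 2 nuclei.

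At least 3 UMIs of both lists were present in 21 of 21 nuclei (83.9 to 100%), against 187 of 4131 oligodendrocyte nuclei (4.53%, 3.91 to 5.21%). Of the endothelial-labelled nuclei 95.2% also met this mark, at median depths of 3401, 2807 and 2220 UMIs respectively. After every nucleus was thinned to 1000 UMIs, the shares were 98.1, 0.366 and 54.7%. The deposited doublet score had a median of 0.273 in the oligodendrocyte-led nuclei, 0.0840 in oligodendrocyte nuclei and 0.272 in endothelial-labelled nuclei. The score therefore did not set these nuclei apart within the endo cluster. Nuclei that the authors called doublets had been removed before deposit. Whether these droplets held RNA of more than 1 cell was not tested.

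**Figure D3:**
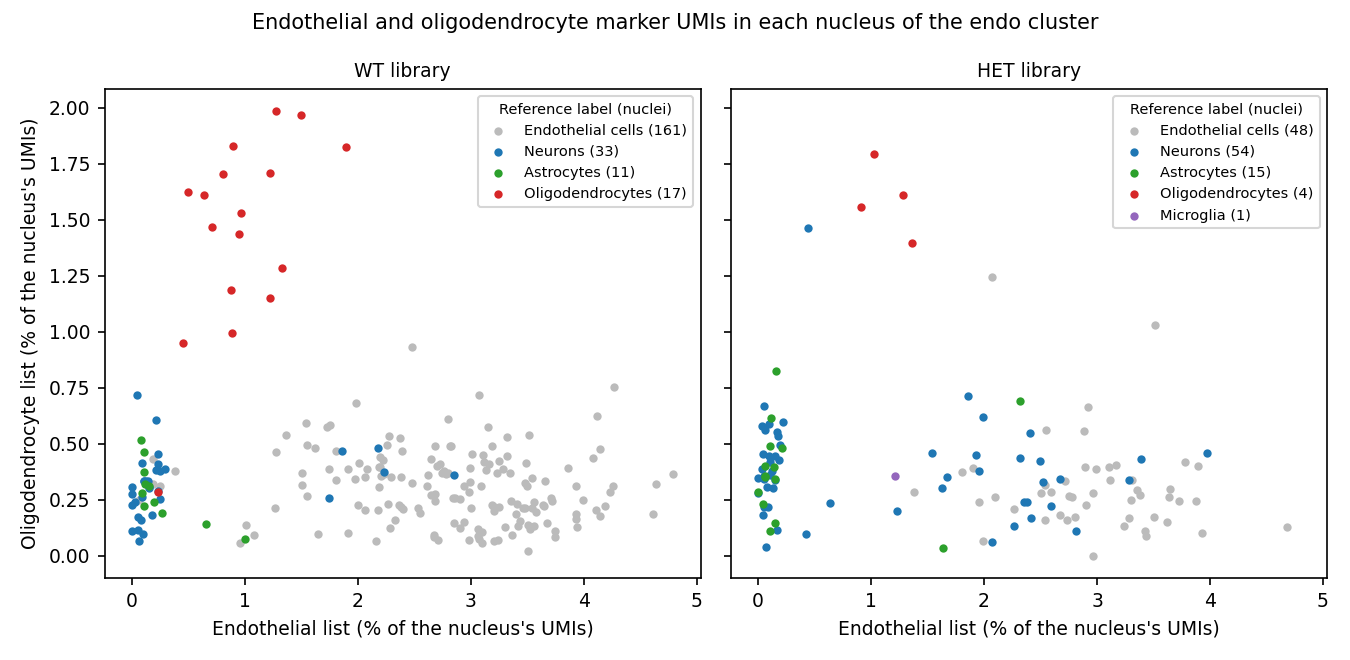
Share of each endo nucleus's UMIs (%) in the endothelial list (horizontal) and the 15 genes of the oligodendrocyte list (vertical), in the WT and HET libraries, with 1 point per nucleus coloured by reference label. The oligodendrocyte-labelled points (red) lie at an oligodendrocyte share of 0.951% or more, except 1 pericyte-like WT nucleus at the lower left.

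The 4 astrocyte-led nuclei had 2613, 5301, 8636 and 9830 UMIs. Together they held the astrocyte list at 52.8% (46.7 to 59.4%) of its level in astrocyte nuclei, the endothelial list at 33.3% (29.4 to 37.6%) of the endothelial-labelled level and the pericyte list at 33.3% (28.8 to 38.3%) of that in the pericyte-like nuclei. The nucleus of 9830 UMIs had 121 astrocyte, 101 pericyte and 65 endothelial UMIs, and the one of 8636 UMIs, the only HET nucleus, had 93, 69 and 141. The nucleus of 5301 UMIs had 52 astrocyte, 53 endothelial and 7 pericyte UMIs, while that of 2613 UMIs had 11, 4 and 29 and was labelled neurons.

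Taken over all 135 nuclei, 696 genes were higher than in endothelial-labelled nuclei (8.17% of 8522) and 1052 lower (12.3%). Centred on the median gene with at least 50 UMIs, which lay at -0.14 on the log2 scale, these counts were 864 and 835. Among the genes furthest below, Isg15 gave 3 UMIs against 151 (log2 -4.79, -7.09 to -3.22), and Bst2 0 against 132, at least 24.2-fold lower. Of the comparison nuclei's UMIs, 89 of Isg15 and 78 of Bst2 came from subcluster 3, which held 59 endothelial-labelled nuclei (51 WT) and 0 discordant ones. Pglyrp1, a peptidoglycan recognition protein of barrier endothelium, was 33.9-fold lower with 8 against 493 UMIs. Among the higher genes were the adhesion genes Cdh20 (15.4-fold) and Cdh10 (12.5-fold) and Plce1 (11.9-fold). The 135 nuclei are a mixture, and Cdh20 stood at 751 CPM in the oligodendrocyte-led nuclei alone, where it was 48.6-fold higher.

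Set against all endothelial-labelled nuclei, the discordant nuclei had lower levels of short genes. Of those 209 comparison nuclei, 59 lay in subcluster 3 and 42 in subcluster 4, which held 0 and 2 discordant nuclei. Over 4450 genes split into 4 bins by gene length, the median log2 difference from endothelial-labelled nuclei was -1.19 for genes up to 17.8 kb, -0.35, 0.12, and 0.55 for genes of 115 kb or more. It ran from -1.02 to 0.50 in WT and from -0.98 to 0.34 in HET. The 29 endothelial-like nuclei under 5000 UMIs, set against endothelial-labelled nuclei of the same subclusters, ran only from -0.09 to 0.07 over their own 4 bins. The share of UMIs from ribosomal protein genes, which are short, was a median of 1.04% against 2.66% in the endothelial-labelled nuclei, and the mitochondrial share 1.04% against 1.99%. Within the endothelial-like subclusters, the ribosomal median was 1.65% in discordant against 1.53% in endothelial-labelled WT nuclei. In HET it was 0.991% against 0.889%. The part of the makeup of the comparison nuclei in these shifts was not tested. The lower levels of the short endothelial genes, such as Cldn5 at 1.42 kb, stood beside this shift, whose part in them was not tested. The 13 pericyte-list genes that were higher in the pericyte-like nuclei were 28.8 kb (Slc19a1) to 391 kb (Ebf1) long, so none of them was in the shortest bin.

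**Figure D4:**
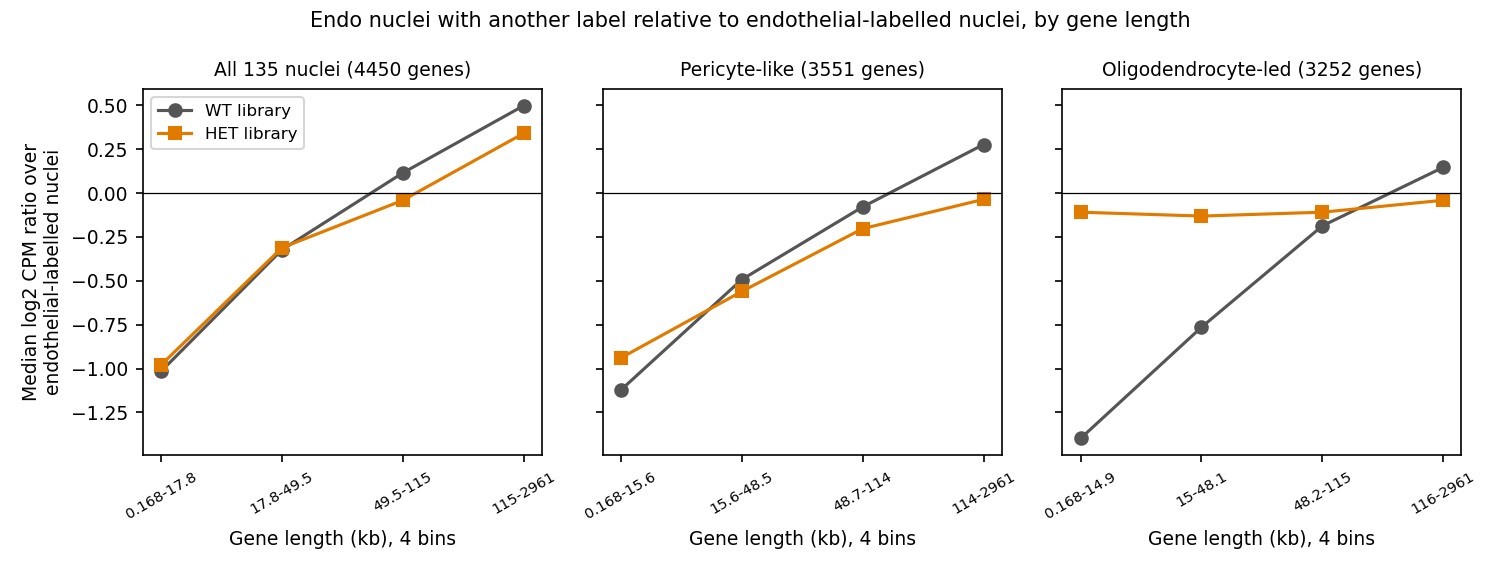
Median log2 CPM ratio of discordant over endothelial-labelled nuclei (vertical) in 4 bins of gene length in kb (horizontal) for all 135 nuclei, the pericyte-like and the oligodendrocyte-led nuclei, in the WT (circles) and HET (squares) libraries. All 135 nuclei rise from about -1 in the shortest bin to 0.50 in WT and 0.34 in HET, and the flat HET line at the right comes from 5 nuclei.

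Between the libraries, 368 genes were higher in HET than in WT discordant nuclei (9.38% of 3925) and 302 lower (7.69%). The median log2 difference ran from -0.34 in the shortest to 0.30 in the longest of 4 bins of gene length. The makeup of the nuclei differed at the same time, since 28 of 74 HET but 5 of 61 WT nuclei were endothelial-like, and 5 of 74 HET but 16 of 61 WT nuclei oligodendrocyte-led. Of the 28 endothelial-like HET nuclei, 24 had under 5000 UMIs and 4 were the deep, neuron-rich ones. Of the 16 measured neuron-list genes 11 were higher in HET, and 3 of 14 oligodendrocyte genes were lower. Gene differences and makeup cannot be told apart in these sums.

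Within the pericyte-like nuclei alone, 90 genes were higher in HET (6.9% of 1305) and 110 lower (8.43%). Centred on the median gene with at least 50 UMIs (log2 0.11), these counts were 64 and 151. Longer genes were higher here too, with a median log2 of -0.26 for genes up to 58.2 kb and 0.32 for those of 379 kb or more, and in endothelial-labelled nuclei, from -0.68 to 0.45 over 4 bins of their own. The part of this shift in the gene differences was not tested. Of the 16 measured pericyte genes, 0 were higher and 0 lower at 2-fold, and their median was 0.02 beside 0.01 for all genes. Vtn differed by -0.06 on the log2 scale (-0.43 to 0.31), Rgs5 by 0.32 (-0.20 to 0.85) and Abcc9 by 0.34 (-0.02 to 0.71). Pdgfrb was lower in HET by a log2 of -0.45 (-0.83 to -0.07) and Atp13a5 higher by 0.46 (0.23 to 0.70), both under 2-fold. Scn1a gave 13 HET and 6 WT UMIs, too few to tell apart.

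Igsf8, a membrane protein of the immunoglobulin family, was 3.59-fold higher in HET pericyte-like nuclei, with 76 against 20 UMIs (log2 1.84, 1.12 to 2.63). Igsf8 lies at GRCm38 chr1:172261641-172319841 on the plus strand, with a gene annotated on the other strand, and the strand setting of the counting was not given. In HET over WT astrocyte nuclei its log2 difference was 1.24 (1.07 to 1.41), and in neuronal clusters 0.02. Gm17276, antisense to Notch3, was 2.33-fold higher (42 against 17 UMIs), Gm15261, antisense to Arhgap6, 2.24-fold (152 against 64), and the neuronal genes Nrg3 2.70-fold and Rbfox1 2.29-fold. Gm15261 differed little elsewhere, with a log2 of 0.09 in neuronal clusters. Rbfox1 and Nrg3 were also higher in HET endothelial-labelled nuclei (log2 1.46 and 1.42), oligodendrocyte nuclei (1.14 and 0.73) and astrocyte nuclei (1.24 and 0.86).

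Of the 5 genes furthest below in HET pericyte-like nuclei, 4 were also below WT in endothelial-labelled, oligodendrocyte, astrocyte and neuronal nuclei. The exception was AC149090.1 (log2 -1.17), at 0.30 in endothelial-labelled nuclei. Ttr, a choroid plexus transport protein, was 4.42-fold lower (17 against 71 UMIs, log2 -2.14, -3.00 to -1.37), and its log2 difference was -3.01 in oligodendrocyte and -3.00 in neuronal nuclei. Cst3, a protease inhibitor, was 2.47-fold lower (log2 -1.30, -1.91 to -0.72), and it differed by -0.98 in both of those. The ribosomal share of UMIs had a median of 1.43% in WT and 0.858% in HET pericyte-like nuclei, and 0.696 and 0.407% over all nuclei of each library.

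**Figure D5:**
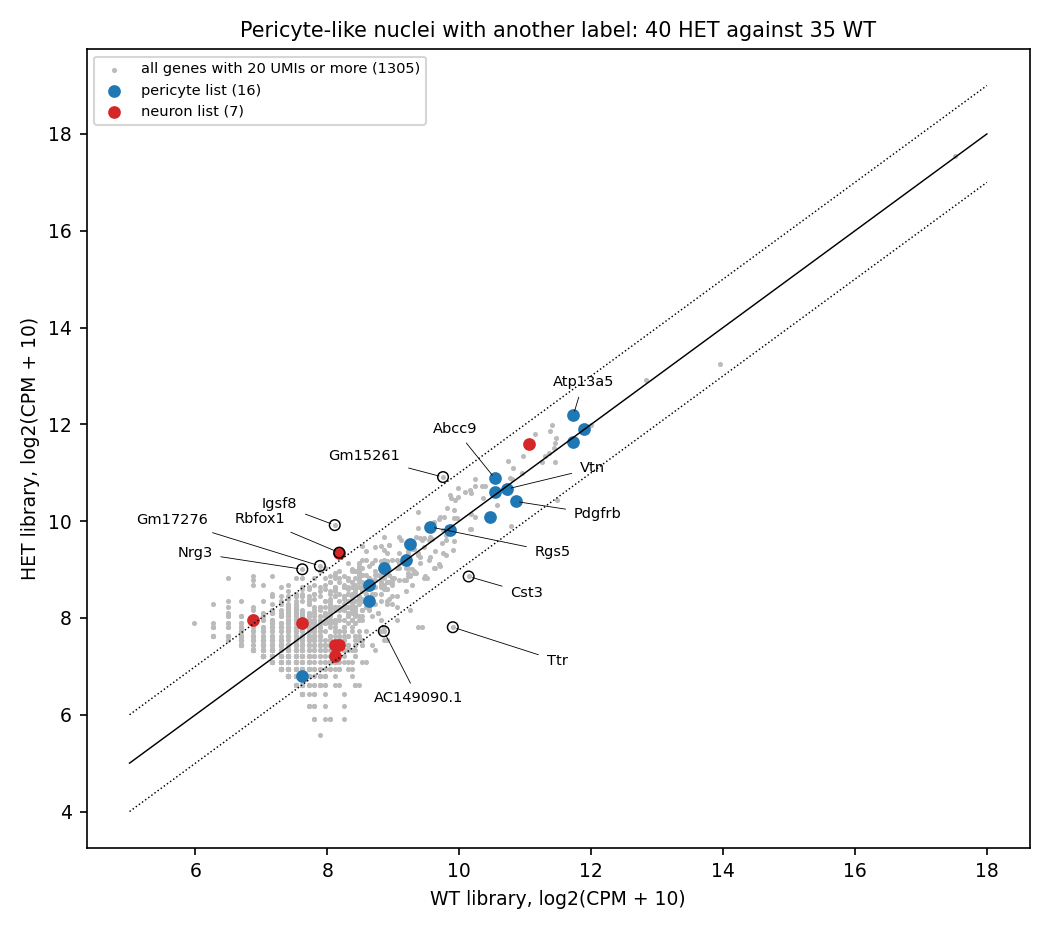
Level of each gene with at least 20 UMIs in the pericyte-like nuclei, as log2(CPM + 10), in the WT library (horizontal) against the HET library (vertical), with 1 point per gene. The solid line marks equal levels, the dotted lines 2-fold, and circles the genes with high or low ratios that the text names. All 16 pericyte-list genes (blue) lie within the dotted lines, and Igsf8 lies above and Ttr below them.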

How the data were processed

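Brainstem nuclei of 1 WT and 1 HET mouse were measured by single-nucleus RNA-seq with 10x Chromium 3′ v3.1 chemistry. The deposited counts are whole UMIs per gene and nucleus (25556 genes, 18281 nuclei), made by the authors with Cell Ranger (version not given in the sources used here) on mm10 and filtered in Seurat 4.1, in which nuclei with few genes or many mitochondrial reads, called doublets, and mitochondrial and hemoglobin genes were removed. The deposited percent values give mitochondrial, ribosomal and hemoglobin UMIs per nucleus, and the doublet score is the authors' own. Cluster names and SingleR labels were taken as deposited.

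UMIs were summed over nuclei and expressed as CPM. Ratios used exact conditional intervals, sums Poisson and shares Clopper-Pearson intervals (95%). A zero was bounded by 3 counts. Endo nuclei were clustered with scanpy 1.11.5 (2000 variable genes, 15 components, 15 neighbours, Leiden resolution 1 with igraph 0.11.9). Intervals came from scipy 1.17.1, tables from pandas 2.3.3 with anndata 0.12.19, plots from matplotlib 3.10.9, all under Python 3.11.15 with numpy 2.4.6. The calculations were tested on simulated counts. Genes named were Pdgfrb, Rgs5 and Vtn, the 4 top genes of each marker list, the 10 highest and 10 lowest ratios (5 and 5 for HET over WT) among genes with at least 50 UMIs, the 10 leading genes of a subcluster, and function-list genes with at least 20 UMIs. Other marker-list genes were named where a marker is near 0. Results for some genes that this rule names are not reported here. The members and lists were chosen with earlier results of these data known. Gene lengths and overlaps come from a GRCm38 annotation that placed 24908 genes at 1 position. Cell Ranger counts reads on the gene's strand, but the setting used here was not given, so antisense pairs are uncertain. Alternatives are in the closing section.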

Additional observations from a re-analysis of the deposited data

How the results depend on the processing

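No paired analysis was possible because each genotype had 1 library. Of the alternative values, 43 stayed within the counting interval or 1.5 times the reported count, and 35 moved. The share of endo nuclei with another label ranged from 36.8 to 38.6% with at least 2000 UMIs or without the 5% highest doublet scores (39.2% as reported). The 75 pericyte-like nuclei were all among the 79 found at resolution 0.5 or without the neuron and oligodendrocyte lists, the 75 at resolution 1.5, and the 80 and 79 in the authors' own subclusters, an alternative added after seeing the data; the 21 oligodendrocyte-led nuclei were the same under every resolution and gene set tried.

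Levels summed over all 135 nuclei moved with the library, the depth and the weighting of nuclei. The pericyte list stood at 12700 CPM, and at 13796 in WT, 11733 in HET, 15084 as a mean over nuclei, 10820 with at least 2000 UMIs and 13379 without high doublet scores. The endothelial list stood at 7693 CPM, and at 6398 in WT, 8836 in HET and 7369 without high doublet scores. The oligodendrocyte list stood at 5795 CPM, and at 7063, 4677 and 5240 in the same settings, 5274 as a mean over nuclei and 6558 with at least 2000 UMIs. The neuron list stood at 5116 CPM, and at 2965 in WT, 7013 in HET, 5409 without high doublet scores and 4723 as a mean over nuclei. Without the 4 deep nuclei, an alternative added after seeing the data, the endothelial-like nuclei moved from 16606 to 23029 CPM of the endothelial and from 9643 to 5098 CPM of the neuron list, and from 292 to 164 genes higher and 25 to 15 lower.

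Co-detection of the vascular and neuron lists rose to 100% at 1 or 2 UMIs in the pericyte-like (98.7% as reported) and in the neuron-labelled endothelial-like nuclei (96.8%), and fell to 85.3 and 84.6% at 1000 UMIs per nucleus. With at least 50 UMIs, 337 genes were higher than in endothelial-labelled nuclei. HET against WT gave 1776 genes higher and 1959 lower with no minimum count, and 95 and 57 at 50 UMIs; within pericyte-like nuclei these were 1116 and 1868, and 8 and 9, where the number of genes tested changed with the minimum.

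Depth limits these nuclei. At a median of 1971 UMIs, a gene near 500 CPM gives about 1 UMI per nucleus, and a gene at 0 UMIs over the 75 pericyte-like nuclei may stand at up to 19.4 CPM.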
